A study of Homo sapiens with 12 samples.

Results

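The genes described here are 10 members of bone morphogenetic protein (BMP) signalling and the ID family: the ligands BMP2, BMP4 and BMP7, the co-receptor ENG, the inhibitory SMAD proteins SMAD6 and SMAD7, and the target genes ID1, ID2, ID3 and ID4. They were chosen by name, and every probe set of the array that names 1 of them alone was taken, which gave 28 probe sets among 44988 that name 1 gene. All 10 genes were measured, among 18132 genes in all. RNA came from Kelly and BE(2)-C cells, 2 established lines from human neuroblastoma with amplified MYCN, grown in the same medium with 10% fetal bovine serum. Cells received DMSO, the vehicle, or 1 µM JQ1 for 24 h, and each of the 4 groups (Kelly with DMSO, Kelly with JQ1, BE(2)-C with DMSO, BE(2)-C with JQ1) held 3 Affymetrix PrimeView arrays. JQ1 is a small molecule that displaces BET bromodomain proteins from acetylated chromatin. BE(2)-C is itself a clone, so each line stands for 1 tumour, and no label tells separate cultures from repeats, so that the p-values cover only the scatter among these arrays, which could be technical.

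BMPs are secreted ligands that bind pairs of type I and type II receptor kinases, which phosphorylate SMAD1, SMAD5 and SMAD9; these enter the nucleus with SMAD4 and switch on genes such as those of the ID family. ID proteins have a helix-loop-helix but no DNA-binding region, and they hold back E proteins and the tissue-specific basic helix-loop-helix (bHLH) factors that drive differentiation. SMAD6 and SMAD7 are induced by the same signal and dampen it. BMPs direct neural crest cells, from which neuroblastoma derives, towards the sympathetic lineage.

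Levels are given on the log2 scale of probe set intensity, and a difference of 1 is 2-fold. Where a gene has several probe sets, the brightest over the 12 arrays stands for it unless stated otherwise. A change is said to have passed when its adjusted p was below 0.05 in limma, a linear model fitted to all 18132 genes with Benjamini-Hochberg adjustment over all of them. Over all genes, the standard error (SE) of the JQ1 effect in 1 line had a median of 0.21. The signal of hybridization controls, bacterial transcripts added in equal amount to every sample, ranged from 9.94 to 13.65 between arrays and was higher with JQ1 in all 3 same-numbered Kelly pairs (by 0.53, 2.19 and 0.39); in BE(2)-C it was lower in 2 pairs and higher by 2.76 in the other. Of the markers of sympathetic neuroblastoma cells that were measured, all 6 had group means above 7 in every group. These markers moved with JQ1 too: TH and DBH, enzymes of catecholamine synthesis, fell in both lines (TH by 1.90 in Kelly and 1.48 in BE(2)-C), and the transcription factors PHOX2A and GATA3 rose in BE(2)-C; their part in the members' changes was not tested.

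In Kelly cells JQ1 lowered BMP7 and SMAD6 and raised ID1 and ID4, and the other 6 members did not pass. That made 4 of 10 members where 6.50% of all genes passed: 2 rose (1.76% of all genes) and 2 fell (4.73%). BE(2)-C cells showed a fall of ENG and SMAD7, and 8 members did not pass. That made 2 of 10 members against 4.69% of all genes, with 0 that rose (2.18% of all genes) and 2 that fell (2.51%). The median log2 fold change of the 10 members was 0.13 in Kelly and -0.16 in BE(2)-C, beside 0.08 and -0.01 over all genes. The JQ1 effect itself differed between the lines in ENG alone among the members, in the fit with 1 probe set a gene, where 0.557% of all genes passed that test (0.116% as lower in BE(2)-C and 0.441% as higher). Groups of JQ1 and DMSO arrays did not overlap in 6 of the 10 members in Kelly (23.7% of all genes) and in 4 of the 10 in BE(2)-C (22.2%).

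**Figure D1:**
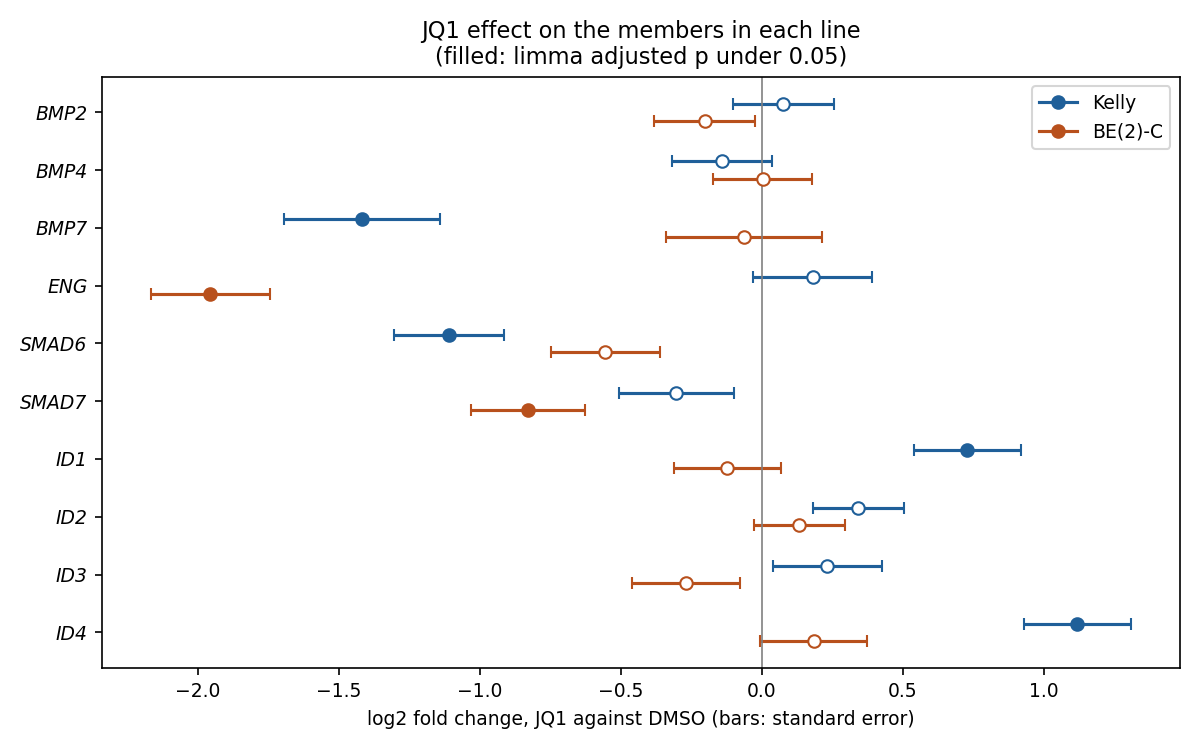
Log2 fold change of JQ1 against DMSO (x axis) for each of the 10 genes (y axis) in Kelly (blue) and BE(2)-C (orange); points are limma estimates from 3 against 3 arrays, bars are standard errors, and filled points passed an adjusted p of 0.05. BMP7, SMAD6, ID1 and ID4 are filled in Kelly, and ENG and SMAD7 in BE(2)-C.

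Among the ligands, BMP7, which acts in kidney, eye and nervous system development, was bright in Kelly and dim in BE(2)-C. In Kelly it read 10.76, 10.99 and 10.84 with DMSO and 9.63, 9.56 and 9.14 with JQ1. All 3 JQ1 arrays lay below all 3 DMSO arrays, and the fall was 2.67-fold (log2 value -1.42 with SE 0.28, limma adjusted p = 0.00811). The BE(2)-C arrays read 4.93, 4.80 and 4.59 with DMSO and 4.54, 4.13 and 5.47 with JQ1, so the groups overlapped there (log2 fold change -0.06, adjusted p = 1). The second BMP7 probe set fell in Kelly by 1.56 (adjusted p over all probe sets = 0.00312) and had a log2 fold change of 0.08 in BE(2)-C. The JQ1 effect in BE(2)-C minus that in Kelly was 1.35 (SE 0.39) and did not pass (adjusted p = 0.193); it passed with the hybridization control signal as a covariate (1.47, adjusted p = 0.0366). That covariate raised the calls over all genes as well, from 1178 to 2293 in Kelly, from 850 to 2752 in BE(2)-C and from 101 to 686 for the difference.

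BMP2 and BMP4, the ligands that pattern bone, heart and the dorsal neural tube, were dim in every group. BMP2 read 4.09 to 4.63 over all 12 arrays and BMP4 4.29 to 4.94, and in both genes every neighbouring pair of groups overlapped. The background control probe sets of the array, which match no human gene, had means that grew with base composition, from 3.42 for probes with 3 G or C bases through 4.48 with 15 and 6.09 with 18 to 10.85 with 25. Probe sequences were not used here, so signal over background was not estimated for these ligands or for other members at such levels, ID4 in BE(2)-C among them. JQ1 against DMSO gave BMP2 0.08 (Kelly) and -0.20 (BE(2)-C) on the log2 scale and BMP4 -0.14 and 0.00, and none passed.

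ENG (endoglin) is a co-receptor for BMP9, BMP10 and TGF-beta ligands and is best known from endothelium. Its levels in BE(2)-C were 9.46, 9.63 and 9.20 with DMSO and 7.52, 7.38 and 7.51 with JQ1. Every JQ1 array was far below every DMSO array, a fall of 3.87-fold (log2 value -1.95 with SE 0.21, limma adjusted p = 0.000283). In Kelly the levels were 7.21, 6.69 and 7.41 with DMSO and 7.38, 7.53 and 6.96 with JQ1, which overlap (log2 fold change 0.18, adjusted p = 0.615). The JQ1 effect was lower in BE(2)-C than in Kelly by 2.13 (difference -2.13, SE 0.30, limma adjusted p = 0.00647). With JQ1 the 2 lines overlapped, with Kelly at 6.96 to 7.53 and BE(2)-C at 7.38 to 7.52.

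Of the 5 ENG probe sets, 4 passed as lower in BE(2)-C, with log2 fold changes of -1.49 to -2.40. The remaining one had -0.51 (adjusted p over all probe sets = 0.29), and 3 of the 5 end in _s_at or _x_at, a suffix for probes that can read related transcripts. None of the 5 passed in Kelly, where they lay between -0.15 and 0.57. Of 6 endothelial markers (PECAM1, VWF, CDH5, KDR, TEK, CLDN5) none had a group mean above 7 in any group, and their summed intensity was 243 to 346 in BE(2)-C with DMSO and 257 to 303 with JQ1. Of 5 fibroblast markers 2 fell in BE(2)-C, the matrix proteoglycans DCN (log2 fold change -1.88, limma adjusted p = 0.000284) and LUM (-1.99, adjusted p = 0.0172), while COL1A1 (0.06), COL1A2 (-0.07) and PDGFRA (-0.18) did not pass. The summed intensity of the 5 was 291 to 370 with DMSO and 158 to 182 with JQ1; the part of these transcripts in the ENG result was not tested. Fewer cells of a kind and less RNA per cell cannot be told apart in such bulk samples.

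Both inhibitory SMADs were brighter in BE(2)-C than in Kelly and had lower means with JQ1 in both lines. SMAD6, which blocks the BMP type I receptors and SMAD1, read 9.46, 9.76 and 10.28 in Kelly with DMSO and 8.79, 8.86 and 8.53 with JQ1. The Kelly groups did not overlap, and SMAD6 fell 2.16-fold (log2 value -1.11 with SE 0.19, limma adjusted p = 0.00425). The BE(2)-C levels were 11.26, 11.05 and 11.19 with DMSO and 10.56, 10.65 and 10.63 with JQ1. These groups did not overlap either, yet the change of -0.55 (SE 0.19) did not pass (adjusted p = 0.148); it did with the hybridization control covariate (-0.57, adjusted p = 0.0406). The difference between the lines, 0.55, did not pass (adjusted p = 0.466). JQ1 against DMSO gave the second SMAD6 probe set -0.57 (Kelly) and -0.48 (BE(2)-C) and the dimmest, at a mean of 5.55, 0.20 and -0.06; neither passed in either line. With the mean of the 3 probe sets the Kelly value was -0.49, which still passed (adjusted p = 0.0252).

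SMAD7, which also brakes TGF-beta receptors, read 8.19, 8.21 and 8.56 in BE(2)-C with DMSO and 7.70, 7.61 and 7.15 with JQ1. The groups did not overlap and the fall was 1.78-fold (log2 value -0.83 with SE 0.20, limma adjusted p = 0.0367). This call was lost without JQ1 replicate 1 (adjusted p = 0.0702), 2 (0.0879) or 3 (0.144) and without DMSO replicate 2 (0.0893) or 3 (0.133). The log2 values in those fits were -0.93, -0.89, -0.66, -0.88 and -0.71. Calls over all genes fell as well, from 850 to between 322 and 539. SMAD7 did not pass with a block for replicate numbers either (replicate block, adjusted p = 0.0629), nor with the mean of the 3 probe sets (-0.44, adjusted p = 0.0727). In Kelly SMAD7 read 7.09, 7.25 and 7.09 with DMSO and 7.01, 7.05 and 6.46 with JQ1. Those groups do not overlap, but the gap between 7.09 and 7.05 is small and the change of -0.30 did not pass (adjusted p = 0.381). The other 2 probe sets of SMAD7, at means of 5.21 and 4.72, had log2 fold changes of opposite sign in Kelly, 0.44 and 0.82, and neither passed.

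The 4 ID genes encode proteins of the same kind; differences in response between them were not tested. Upstream sequences are shown for the 4 of them because ID1 and ID4 rose in Kelly while ID2 and ID3 did not pass. Each is the 250 bases before the gene's start from RefSeq, read 5′ to 3′ on the gene's strand; 8 of the 10 members had an entry. Capitals mark 3 motifs that were found on either strand: the TATA box, spelled TATAAA; the CCAAT box, spelled CCAAT and printed as its reverse complement where it lies on the other strand; and a half-site to which SMAD proteins can bind, spelled CAGAC.
ID1 (GRCh38.p14, chr20:31605039-31605288, plus strand): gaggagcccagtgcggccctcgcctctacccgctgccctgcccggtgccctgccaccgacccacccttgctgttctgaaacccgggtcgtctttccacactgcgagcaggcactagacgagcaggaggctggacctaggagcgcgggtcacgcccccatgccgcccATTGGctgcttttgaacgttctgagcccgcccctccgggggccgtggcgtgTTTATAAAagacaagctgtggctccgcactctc
ID2 (GRCh38.p14, chr2:8681806-8682055, plus strand): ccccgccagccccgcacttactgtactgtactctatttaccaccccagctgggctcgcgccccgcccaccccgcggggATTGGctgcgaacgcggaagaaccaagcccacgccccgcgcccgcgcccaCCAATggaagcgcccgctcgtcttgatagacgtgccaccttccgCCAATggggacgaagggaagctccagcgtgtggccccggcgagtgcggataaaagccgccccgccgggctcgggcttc
ID3 (GRCh38.p14, chr1:23559502-23559751, minus strand): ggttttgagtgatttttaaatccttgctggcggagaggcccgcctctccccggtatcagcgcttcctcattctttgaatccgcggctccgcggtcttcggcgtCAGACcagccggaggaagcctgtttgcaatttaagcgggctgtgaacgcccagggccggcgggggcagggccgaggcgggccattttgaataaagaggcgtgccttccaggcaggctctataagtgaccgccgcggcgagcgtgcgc
ID4 (GRCh38.p14, chr6:19837120-19837369, plus strand): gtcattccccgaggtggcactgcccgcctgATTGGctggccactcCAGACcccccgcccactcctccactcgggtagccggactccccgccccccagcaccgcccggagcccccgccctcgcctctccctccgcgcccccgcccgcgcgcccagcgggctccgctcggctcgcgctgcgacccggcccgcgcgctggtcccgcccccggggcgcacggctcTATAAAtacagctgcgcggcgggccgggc
TATAAA in this exact spelling was present in the windows of ID1 and ID4 and in neither of the other 2 (10.7% of 35116 windows of this length hold it). It lay at -31 to -26 in ID1, where it overlaps a match on the other strand, and at -29 to -24 in ID4, counted from the gene's start. CCAAT was found in ID1, in ID2 at 3 places and in ID4 (32.0% of windows), and CAGAC in ID3 and ID4 (38.0%). GGCGCC, a GC-rich SMAD motif, and CACGTG, the E-box preferred by MYC proteins, were searched as well and occur in none of the 4 windows (16.4% and 6.34% of all windows). Near matches were not counted: ID2 holds gataaa and ID3 holds tataag near the same places. A SMAD7 window also holds TATAAA, at -35 to -30, and SMAD7 did not pass as higher in either line. The 4 windows were chosen with the responses known, and a tie between motif and response was not tested. A match of letters describes the window only, and shows no binding.

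ID4 showed the largest rise among the members. Its brightest probe set read 6.01, 5.68 and 6.05 in Kelly with DMSO and 6.86, 6.95 and 7.30 with JQ1. The JQ1 arrays were all higher, a rise of 2.17-fold (log2 value 1.12 with SE 0.19, limma adjusted p = 0.00344). The BE(2)-C levels were 5.75, 5.47 and 5.62 with DMSO and 5.77, 5.52 and 6.10 with JQ1, which overlap (0.18, adjusted p = 0.916). The other 3 ID4 probe sets passed as higher in Kelly too, by 1.66, 1.98 and 1.57 (adjusted p over all probe sets = 0.000591, 0.00361 and 0.0477), and had 0.15, 0.17 and 0.15 in BE(2)-C. The difference between the lines was -0.93 (SE 0.27) and did not pass (adjusted p = 0.191), except with the hybridization control covariate (-0.81, adjusted p = 0.0328) or, in the second brightest probe set, over all probe sets (-1.51, adjusted p = 0.0466).

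ID1, the most studied BMP target of the family, read 10.79, 10.39 and 10.47 in Kelly with DMSO and 11.57, 11.43 and 10.84 with JQ1. The groups are separated by the small gap between 10.79 and 10.84, and ID1 rose 1.66-fold (log2 value 0.73 with SE 0.19, limma adjusted p = 0.0388). This call, too, was lost in most fits with 1 array left out. Without Kelly DMSO replicate 1, 2 or 3 the adjusted p was 0.0538, 0.153 or 0.0572. Without JQ1 replicate 1 or 2 of Kelly it was 0.109 or 0.128. The log2 value stayed between 0.58 and 0.95 over all alternatives. Calls over all genes, 1178 in the main fit, were 603, 680 and 2168 without DMSO replicate 1, 2 or 3. They were 1095 and 750 without JQ1 replicate 1 or 2. BE(2)-C arrays read 11.77, 11.78 and 11.80 with DMSO and 11.62, 11.62 and 11.74 with JQ1; the JQ1 arrays were lower by a mean of 0.12, which did not pass (log2 fold change -0.12, adjusted p = 1). The brightest ID1 probe set, to which the values above belong, ends in _x_at. The ID1 probe set at a mean of 10.73 does not end in _s_at or _x_at. It read 9.71 to 10.03 in Kelly with DMSO and 10.79 to 10.91 with JQ1. That rise of 0.97 passed (limma adjusted p over all probe sets = 0.00176), and the JQ1 effect differed between the lines (-1.12, adjusted p = 0.0327). The third probe set had 0.74 in Kelly (0.182).

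Neither ID2 nor ID3 had a change that passed. ID2, which has been tied to the RB pathway in neuroblastoma, read 12.63, 12.48 and 12.82 in Kelly with DMSO and 12.92, 12.89 and 13.14 with JQ1. The JQ1 arrays were all higher, by 0.34 on average (SE 0.16, adjusted p = 0.233). The BE(2)-C range was 12.22 to 12.61 with DMSO and 12.35 to 12.58 with JQ1 (log2 fold change 0.13, adjusted p = 0.961). A second ID2 probe set, as bright at a mean of 12.62, had 0.24 in Kelly with overlapping groups (limma adjusted p over all probe sets = 0.415). Both ID2 probe sets end in _s_at or _x_at. ID3 read 11.97 to 12.39 in Kelly with DMSO and 12.28 to 12.59 with JQ1 (0.23, adjusted p = 0.475), and 12.02 to 12.50 against 11.77 to 12.25 in BE(2)-C (-0.27, adjusted p = 0.707).

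Within groups, ID2 followed the hybridization control signal closely over the 12 arrays (Pearson r = 0.92 after group means were removed). So did ID4 (0.81), ID3 (0.69) and BMP2 (0.66), while ID1 did not (-0.17) and SMAD7 ran against it (-0.69). BMP7 and BMP4 had 0.43 each, ENG 0.38 and SMAD6 0.32. These values describe 12 arrays that share the normalization, and no value over all genes is set beside them. With the control signal in the model the Kelly values became 0.21 for ID2, 0.10 for ID3, 0.97 for ID4 (limma adjusted p = 0.000459) and 0.76 for ID1 (adjusted p = 0.0154), so the rises of ID1 and ID4 still passed.

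**Figure D2:**
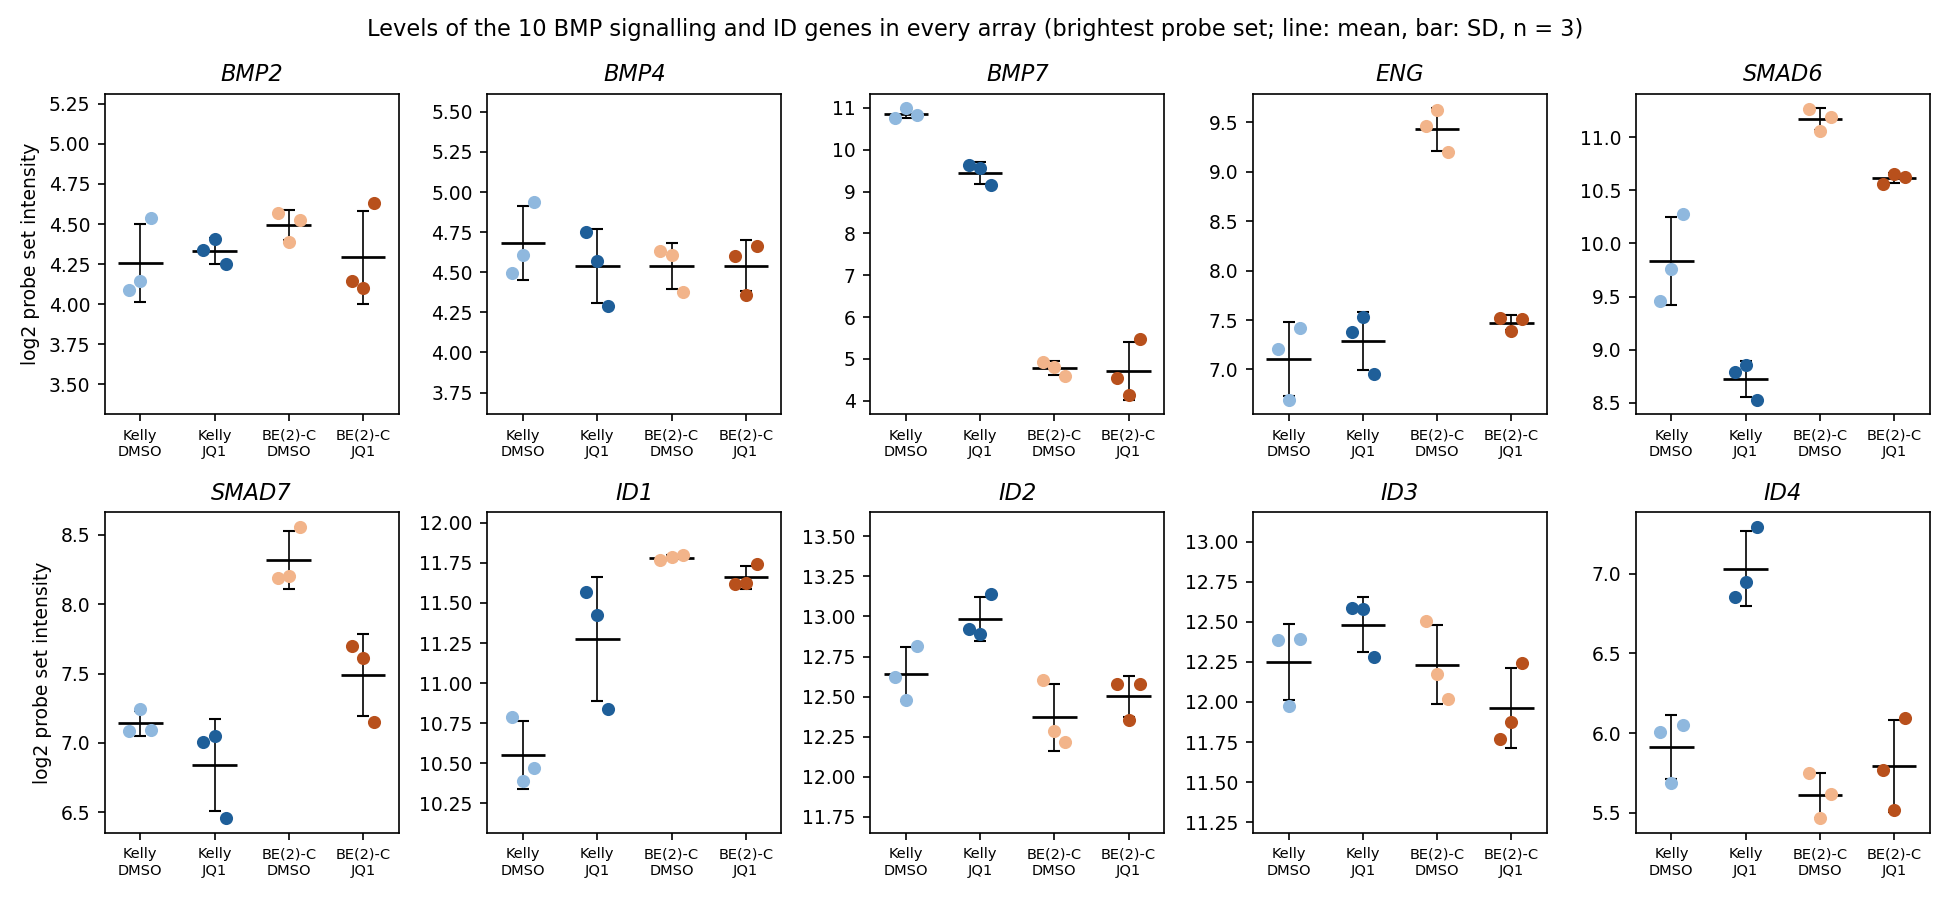
Log2 probe set intensity (y axis, a separate range for each gene) of the 10 genes in the 4 groups (x axis); each point is 1 array, lines are means and bars are SD with n = 3. ENG in BE(2)-C drops to the Kelly level with JQ1, BMP7 is high only in Kelly, and ID4 with JQ1 in Kelly stands above the other 3 groups.

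Under DMSO the lines themselves differed in 5 of the 10 members (15.1% of all genes passed), with 4 higher (7.20% of all genes) and 1 lower (7.89%) in BE(2)-C. This comparison uses the DMSO arrays that also serve as controls of the JQ1 effects, so its values are not independent of those above. BMP7 was 68.2-fold lower in BE(2)-C (log2 difference -6.09, SE 0.28, limma adjusted p = 1.29e-08). That size is uncertain because signal over background was not estimated for its dim BE(2)-C level of 4.77 ± 0.169 (SD, n = 3). The second probe set gave -3.29. ENG was higher in BE(2)-C by 2.32 (adjusted p = 6.66e-06), SMAD6 2.53-fold (1.34, adjusted p = 0.000349), ID1 2.35-fold (1.23, adjusted p = 0.000583) and SMAD7 2.26-fold (1.18, adjusted p = 0.00135). These 5 calls held in all 16 alternatives run for this comparison. ID4 did not pass in its brightest probe set (-0.30, adjusted p = 0.41), which ends in _x_at, but both probe sets ending in _at alone passed as lower in BE(2)-C (adjusted p over all probe sets = 2.11e-05 and 0.001), the brighter of them with a log2 difference of -2.07.

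The order of the 4 groups differed from gene to gene. For ENG it ran from Kelly with DMSO (7.11 ± 0.371, SD, n = 3) through Kelly with JQ1 (7.29 ± 0.297) and BE(2)-C with JQ1 (7.47 ± 0.077) to BE(2)-C with DMSO (9.43 ± 0.217), and only the last step was free of overlap. For SMAD6 and ID1 no neighbouring groups overlapped: SMAD6 rose from Kelly with JQ1 (8.72 ± 0.173) to BE(2)-C with DMSO (11.17 ± 0.106), and ID1 from Kelly with DMSO (10.55 ± 0.213) to BE(2)-C with DMSO (11.78 ± 0.0146). For ID4, in its brightest probe set, the lower 3 groups overlapped in turn, and Kelly with JQ1 (7.03 ± 0.232) stood apart. In both ID4 probe sets ending in _at alone, Kelly with DMSO lay above both BE(2)-C groups. The brighter of them read 6.43 to 6.83 there, against 4.32 to 4.73 in BE(2)-C with DMSO and 4.56 to 4.82 with JQ1. Under JQ1 the lines did not overlap in 7 of the 10 members, against 49.9% of all genes; under DMSO that count was 5, against 25.7%.

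Averaged over the lines, BMP7, ENG, SMAD6 and SMAD7 fell and ID4 rose (5 of 10 members, 11.1% of all genes). The 4 that fell stand beside 7.04% of all genes and the 1 that rose beside 4.02%. Each of the 5 passed in 1 line only: BMP7, SMAD6 and ID4 in Kelly, and ENG and SMAD7 in BE(2)-C. BMP7 had -1.42 in Kelly and -0.06 in BE(2)-C, and ID4 had 1.12 and 0.18. SMAD6 had an average log2 fold change of -0.83 (SE 0.14, limma adjusted p = 0.00171), ID4 of 0.65 (adjusted p = 0.00699) and ENG of -0.89 (adjusted p = 0.00194), although ENG passed in BE(2)-C and not in Kelly, a difference that passed its own test above. The average fall of BMP7 (-0.74, adjusted p = 0.028) did not pass when any of 7 arrays was left out: DMSO replicate 1 (0.0549) or 2 (0.06) or JQ1 replicate 2 (0.0507) or 3 (0.065) of Kelly, or JQ1 replicate 1 (0.0791) or 2 (0.062) or DMSO replicate 2 (0.0653) of BE(2)-C. That of SMAD7 (-0.57, adjusted p = 0.0225) did not pass without DMSO replicate 2 of Kelly (0.0512) or DMSO replicate 3 (0.0605) or JQ1 replicate 3 (0.0583) of BE(2)-C, and was -0.06 with the mean of its probe sets (adjusted p = 0.743). The average of ID1 (0.30, adjusted p = 0.204) passed without Kelly JQ1 replicate 3 (0.41, adjusted p = 0.0231), and its probe set at a mean of 10.73 passed over all probe sets (0.40, adjusted p = 0.0228).

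With each of the 44988 probe sets as a test of its own, 5 of the 28 member probe sets rose in Kelly (0.958% of all probe sets) and 3 fell (3.39%; 4.35% in all). The BE(2)-C arrays gave 4 that fell (1.56%), all of ENG, and 0 that rose (1.25%; 2.81% in all). For the average, 4 rose (2.47%) and 8 fell (5.07%; 7.53% in all). Between the lines under DMSO, 15 passed (12.3%). The difference of the JQ1 effect passed as lower in BE(2)-C in 5 (0.0934%) and as higher in 0 (0.233%; 0.327% in all); of these 5, 3 read ENG, 1 ID1 and 1 ID4. Probe sets of 1 gene read the same RNA and are not replicates.

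**Figure D3:**
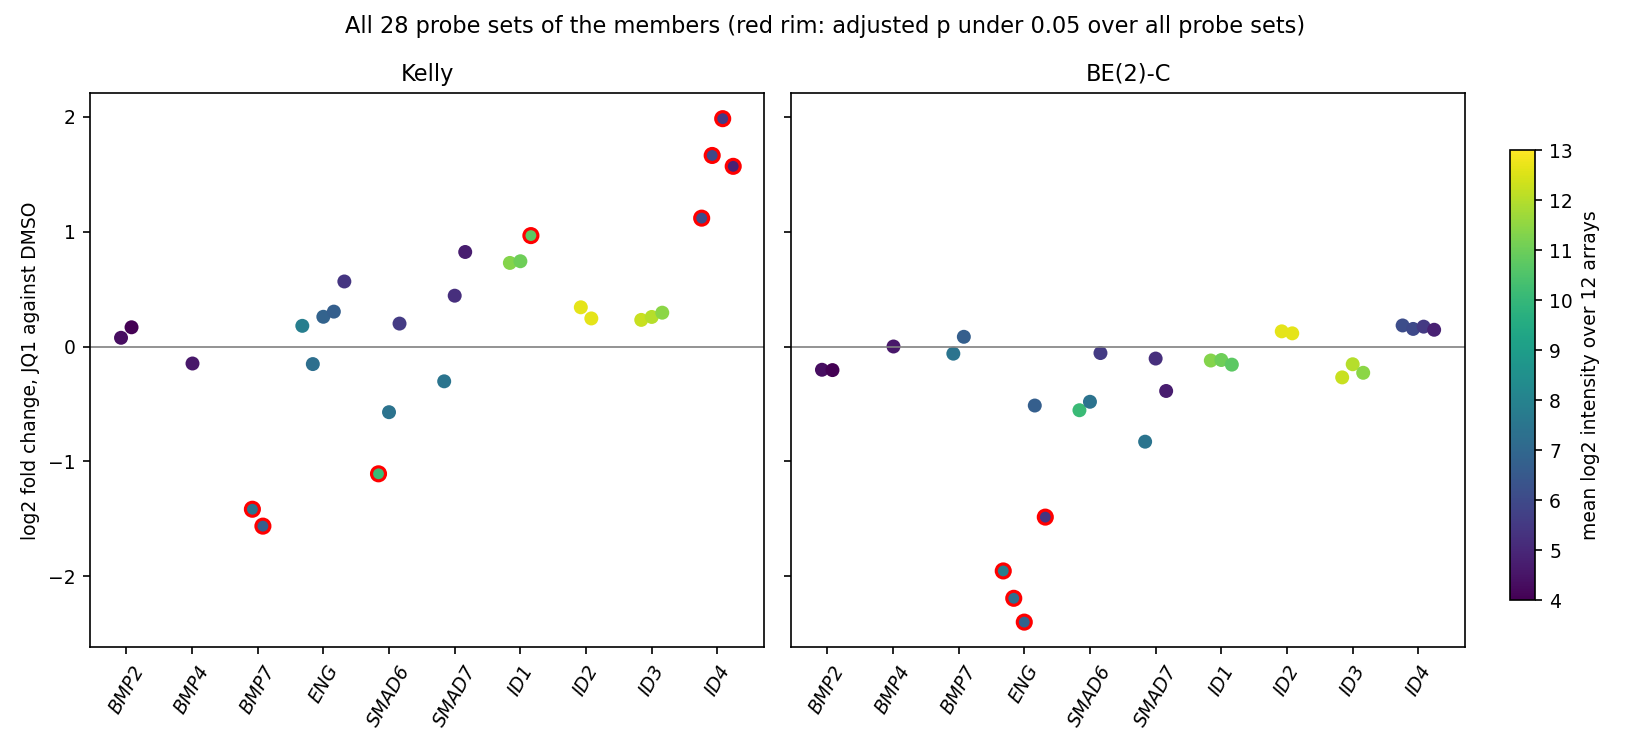
Log2 fold change of JQ1 against DMSO (y axis) for all 28 probe sets, grouped by gene (x axis), in Kelly (left) and BE(2)-C (right); colour is the mean log2 intensity over 12 arrays and a red rim marks an adjusted p below 0.05 over all probe sets. All 4 ID4 probe sets are rimmed and positive in Kelly, and 4 of the 5 ENG probe sets are rimmed and negative in BE(2)-C.

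The genes whose levels followed a member most closely over the 12 arrays were listed by Pearson r, without a test, 2 for each member. Such a value over 4 groups is set mostly by the differences between them. BMP7 was followed by MDK (r = 0.99), which encodes the growth factor midkine, and ELOVL2 (0.99), a fatty acid elongase. ENG was followed by DCN (0.97) and ADAMTS1 (0.96), a secreted protease, which had log2 fold changes of -1.88 and -1.23 in BE(2)-C and 0.07 and 0.18 in Kelly. SMAD6 was followed by FCGRT (0.99) and TPM4 (0.98), ID1 by SNTB2 (0.98) and ACD (0.95), and ID4 by ADNP2 (0.97) and SGSM1 (0.96). SMAD7 went with PABIR2 (0.98) and DLGAP5 (0.96), ID2 with FGFRL1 (0.98) and TNFAIP8L3 (0.98), and ID3 with SNORA71D (0.95) and MRPL14 (0.95). The dim ligands BMP2 and BMP4 had PCDHGA1 (0.95) and CRHBP (0.90) as their first matches.

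Of the 79 measured genes in 7 lists of the wider pathway, 4 passed in Kelly and 2 in BE(2)-C, beside 6.50% and 4.69% of all genes. Of 11 measured receptors and co-receptors, 1 fell in BE(2)-C, the BMP co-receptor RGMA, and none passed in Kelly. RGMA read 7.93, 8.03 and 8.02 with DMSO and 6.58, 6.50 and 6.51 with JQ1 (-1.47 on the log2 scale, limma adjusted p = 0.000832). With the mean of its probe sets the change was -0.26 (adjusted p = 0.559). In Kelly the largest value was that of the type II receptor ACVR2B (-0.90, adjusted p = 0.0677), which passed with the mean of its probe sets (-0.93, adjusted p = 0.0141), with the control covariate (-0.94, 0.0371) and with a replicate block (adjusted p = 0.0305). ACVR2A was higher with JQ1 without overlap in Kelly (0.65, adjusted p = 0.0609) and in BE(2)-C (0.62, adjusted p = 0.0883). Its average of 0.64 passed (limma adjusted p = 0.00765), and it passed in both lines with the control covariate. Under DMSO the type I receptor ACVR1 (2.02), the type II receptor BMPR2 (1.29) and RGMB (1.28) were higher in BE(2)-C, and ACVR2B (-2.22), RGMA (-1.88) and TGFBR3 (-0.60) lower.

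Among 11 SMAD transducers and regulators, 1 rose and 1 fell in Kelly and 0 passed in BE(2)-C. ZNF423, a zinc-finger partner of BMP-activated SMADs, read 7.92, 7.89 and 8.85 in Kelly with DMSO and 6.38, 6.59 and 6.13 with JQ1, a fall of 1.85 (SE 0.28, limma adjusted p = 0.00166). SKI, a corepressor that binds SMADs, read 8.43, 8.52 and 8.55 with DMSO and 9.48, 9.23 and 9.72 with JQ1 and rose by 0.98 (adjusted p = 0.00371). BE(2)-C cells had -0.81 for ZNF423 (adjusted p = 0.148) and 0.59 for SKI (0.0676), and the JQ1 arrays of both lay apart from the DMSO arrays. SKI passed there with the mean of its probe sets (0.65, adjusted p = 0.012), an offset of 16 (0.0438) and the control covariate (0.0161). The signal-carrying SMAD1, SMAD5, SMAD9 and SMAD4 passed in neither line; SMAD1 had -0.54 in Kelly and -0.67 in BE(2)-C.

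Of 17 extracellular antagonists and BAMBI, 1 fell in Kelly: the follistatin-like protein FSTL1 (-1.22, limma adjusted p = 0.0183). It did not pass without DMSO replicate 1 (0.0919) or 2 (0.0789) or JQ1 replicate 3 (0.0674) of Kelly. None passed in BE(2)-C, where SOSTDC1 (-1.09, adjusted p = 0.0704) had the largest change; it passed without BE(2)-C DMSO replicate 1 (-1.42, adjusted p = 0.0137), with a replicate block (0.0332) and with the control covariate (0.0235). BAMBI, a decoy receptor, was 2.12 higher in BE(2)-C than in Kelly under DMSO. With JQ1 it had -0.99 in BE(2)-C (adjusted p = 0.0772), which passed with the control covariate.

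None of 13 other BMP and GDF ligands, 8 other BMP targets and 9 bHLH factors passed in either line. The ligands' median was 0.38 in Kelly and -0.10 in BE(2)-C, with BMP10 the furthest in both (0.67 and -0.24), and that of the other targets 0.52 and -0.13. Markers of other cell types had medians of 0.49 and -0.12 (endothelial), 0.34 and -0.16 (haematopoietic) and 0.39 and 0.08 (Schwann). Those of epithelial markers were 0.23 and -0.02, and those of fibroblast markers 0.07 and -0.18. With the control covariate the Kelly medians of the ligands and the other targets were 0.10 and 0.43, beside 0.03 over all genes. With that covariate HEY1 (0.59, adjusted p = 0.0373) and RUNX2 were higher and DLX5 lower in Kelly, and HEY1 (-0.62, adjusted p = 0.0179) and ATOH8 lower in BE(2)-C. In the main fit HEY1 had 0.08 in Kelly (limma adjusted p = 0.93) and -0.73 in BE(2)-C (adjusted p = 0.55). Its Kelly value ran from -0.33 to 0.59 over the alternatives. In each line the covariate fit was the only 1 of 16 alternatives in which HEY1 passed. MSX1, a homeobox target, had 0.69 in Kelly (adjusted p = 0.143). Among the bHLH factors, which ID proteins restrain directly or through E proteins, the E protein TCF12 had -0.69 in Kelly (adjusted p = 0.0548); it passed with an offset of 16 (0.0453) and with the control covariate (0.035). HAND1 had -0.48 in Kelly, passing without Kelly DMSO replicate 3 (-0.72, adjusted p = 0.0268), and -0.39 in BE(2)-C.

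In the TGF-beta and activin arm 1 of 10 genes fell in Kelly and 1 rose in BE(2)-C. SMAD3, which carries the TGF-beta signal, fell by 1.17 in Kelly (limma adjusted p = 0.0179) and had -0.78 in BE(2)-C (adjusted p = 0.125). The Kelly call was lost without DMSO replicate 1 (0.0719) or 2 (0.0797), without JQ1 replicate 3 (0.071) and with the mean of its probe sets (-0.19, adjusted p = 0.3), while in BE(2)-C SMAD3 passed without DMSO replicate 1 (-1.08, adjusted p = 0.0195) and with the control covariate (-0.73, 0.00358). The ligand TGFB1 rose by 0.61 in BE(2)-C (adjusted p = 0.0277). Its call was lost without BE(2)-C DMSO replicate 2 (0.135) or 3 (0.0821), without JQ1 replicate 1 (0.0919), 2 (0.0682) or 3 (0.111), and with a replicate block (0.0632).

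**Figure D4:**
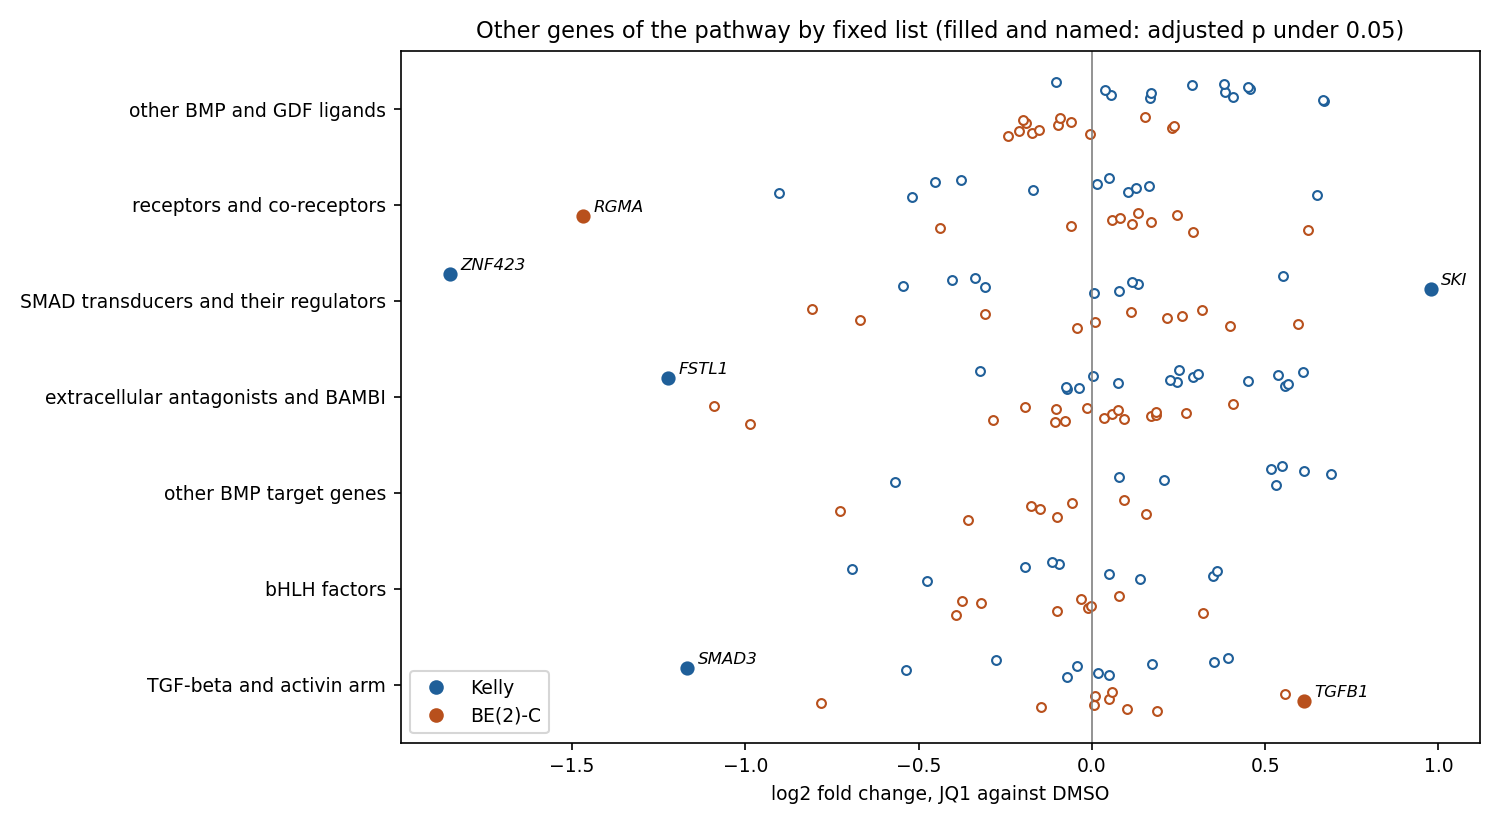
Log2 fold change of JQ1 against DMSO (x axis) for the 79 measured genes of 7 pathway lists (y axis) in Kelly (blue) and BE(2)-C (orange); each circle is a gene, and filled, named circles passed an adjusted p of 0.05. In Kelly ZNF423, FSTL1, SMAD3 and SKI are filled, and in BE(2)-C RGMA and TGFB1.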

How the data were processed

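RNA of 12 samples in 4 groups of 3 was measured on 1-colour Affymetrix PrimeView arrays. The authors used RMA per the submitters' processing notes, with a version not given in the sources used here, and deposited intensity values on a linear scale; array medians ran from 61.4 to 67.3 and no value was at or below 0. The tests were planned on log2 values, so log2 was taken with no offset. No further normalization, filter or floor was applied. The platform annotation gave 1 gene for 44988 of the 49395 probe sets, several for 1832 and none for 2473, and 102 were controls; symbols follow the GRCh38.p14 gene table, matched by gene identifier. The number of arrays limits the precision.

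Genes were fitted with limma 3.58.1 in R 4.3.3 with 1 mean per group, all 12 arrays in 1 model. There were 5 comparisons: the JQ1 effect in Kelly, in BE(2)-C, averaged, and as BE(2)-C's minus Kelly's, and the lines under DMSO. P-values are two-sided. Alternatives were averaged probe sets, every probe set, quantile normalization, median centring, an offset of 16, a filter at a mean of 5, a trend and robust prior, own arrays only, the control signal (mean of 9 probe sets) as a covariate, a replicate block and each array left out. The fit was tested on simulated data. Residuals of same-numbered DMSO and JQ1 arrays correlated across genes at 0.434, 0.228 and 0.515 in Kelly and at -0.0706, 0.527 and -0.744 in BE(2)-C. By the rule used here numbers pair samples in Kelly only, and that rule does not rest on the labels. A technical signal shared by arrays was not separated from pairing. The BE(2)-C pair at -0.744 is the one whose control signal differed by 2.76. The main fit takes no account of pairs in either line. With the replicate block, calls over all genes in Kelly were 1523 against 1178.

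Named genes were all members, per fixed list and line the up to 3 passing genes with the largest change or the 1 largest if none passed, and the 2 most alike genes per member; other genes named were chosen after their values were seen. The members and lists were chosen with earlier results of these data known.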

Additional observations from a re-analysis of the deposited data

Results flagged for a closer look

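ENG was flagged because the JQ1 effect differed between the lines by a test of the difference itself. The effect in BE(2)-C minus that in Kelly was -2.13 on the log2 scale (limma adjusted p = 0.00647), with a fall in 3 of 3 BE(2)-C arrays relative to every DMSO array and overlapping groups in Kelly. Over the 21 alternatives run it lay between -2.30 and -1.93, with adjusted p from 0.00113 to 0.0303.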

How the results depend on the processing

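In Kelly the calls of BMP7, SMAD6 and ID4 held in all 16 alternatives and that of ID1 in 8; the count of members called was 3 to 4 when 1 array was left out. In BE(2)-C the call of ENG held in all 16 and that of SMAD7 in 5. The count of 2 there became 1 when every probe set was tested, with the mean of the probe sets, median centring, the trend and robust prior, own arrays only or the replicate block, rose to 3 with the control covariate (ENG, SMAD6 and SMAD7; calls over all genes rose from 850 to 2752), and was 1 to 2 when 1 array was left out. The count for the average was 3 to 5 with 1 array left out. The count for the difference of the JQ1 effect rose from 1 to 3 when any probe set of a gene could count (by the brightest probe set of each, ENG alone passed there) and with the control covariate, where calls over all genes rose from 101 to 686; it stayed at 1 with any array left out. For BE(2)-C against Kelly the count was 5 to 6. The replicate block ended the call of SMAD7 in BE(2)-C (adjusted p = 0.0629) and changed no other call of a member. No called member or named gene turned its direction in an alternative that called it. BMP2 and BMP4 had no value under the filter at a mean of 5. The cause of the calls that changed was not tested. Dim probe sets (BMP2, BMP4, BMP7 in BE(2)-C) have no estimate of signal over background, so their sizes are uncertain.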
